A study of Homo sapiens with 4 samples.

Results

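Transcripts of the interleukin-1 family were followed in A375 cells, an established human melanoma line, after exposure to a medium-chain fatty acid. The 9 genes described are the ligands IL1A, IL1B, IL18 and IL33, the receptor antagonist IL1RN, the receptor chains IL1R1, IL1RAP and IL1R2, and the processing protease CASP1, out of 56832 genes in the deposited table. They were picked by symbol with the octanoate to vehicle differences of these data already known, so those differences are given for the 9 genes as a description, without a test. Wild-type (WT) cells, all grown in DMEM with serum, received 1 mM octanoate, a saturated medium-chain fatty acid, or its isopropanol vehicle for 48 h. Each group has 2 libraries made from total RNA, and the labels do not say whether these came from separate cultures, so all p-values measure only the spread between these libraries. A375 is a single line, and nothing here extends to other melanomas.

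IL-1alpha and IL-1beta are pro-inflammatory cytokines that bind the receptor IL1R1, which then recruits the accessory chain IL1RAP and signals through MYD88 and IRAK kinases to NF-kappaB and MAP kinases. IL-1beta and IL-18 are made as inactive precursors that caspase-1 cleaves inside inflammasomes, whereas IL-1alpha is active as a precursor and is trimmed by calpain. The pathway is restrained by the antagonist that IL1RN encodes, which occupies IL1R1 without signalling, and by the decoy receptor IL1R2, which lacks a signalling domain. Melanoma cells can release IL-1 themselves, and the released cytokine is known to act on tumour and stromal cells.

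The recovered reads per library ran from 67785956 to 78005035. Values are normalised counts, that is reads divided by 1 size factor per library, so 1 read is worth between 0.963 and 1.08 of a normalised count. Of the lineage markers checked against the label, SOX10, a melanocyte lineage factor, stood between 34072 and 41363 normalised counts and was not called, and the pigment enzyme TYR stood between 1.93 and 3.93. The 8 lineage markers summed to 45149 to 49400.2 in vehicle and 38666 to 43758 in octanoate, most of it SOX10. DCT, MLANA and S100A1 were not called. Their log2 differences were -0.83, 0.13 and 0.25 (limma adjusted p 0.106, 0.764 and 0.217). MITF fell from 3533 and 3329.9 to 2414 and 2511 (log2 difference -0.48, adjusted p 2.33e-06 by limma), S100B fell from 4234 and 3741 to 1917 and 1746 (-1.12, 9.15e-12), and PMEL rose from 65.8 and 65.9 to 98.2 and 95.4 (0.55, 0.0289). Markers of leukocytes, which are the usual source of IL-1beta in tissue, summed to between 635 and 704 in vehicle and between 781 and 831 in octanoate over 8 genes, of which LYZ supplied 574 to 749. LYZ had a log2 difference of 0.26 (adjusted p 0.0273 by limma), while the defining leukocyte gene PTPRC read between 1.93 and 10.8, CD68 between 1.08 and 1.96 and CD3E between 1.08 and 2.91. Keratinocyte markers summed to 5673 to 6704 in vehicle and 4787 to 6441 in octanoate over 5 genes, most of it KRT10, which was not called, with KRT1 at 0 in every library. KRT14 fell from 1110.1 and 942 to 266 and 218 (log2 difference -2.08, adjusted p 2.40e-13 by limma). Fibroblast markers summed to 2352 to 2396 in vehicle and 2056 to 2168 in octanoate over 5 genes. Of these, COL1A1 fell by 0.69 (adjusted p 3.63e-05 by limma) and COL1A2 by 0.99 (0.0394) on the log2 scale. LUM, PDGFRB and DCN were not called. Their log2 differences were 0.03, -0.09 and -0.34 (limma adjusted p 0.84, 0.427 and 0.101). Endothelial markers summed to 201 to 207 in vehicle and 338 to 347 in octanoate over 3 genes, of which PECAM1 and VWF rose and CDH5, at 8.66 to 21.7, was not called. The part of these marker differences in the results was not tested.

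Flanking sequences of IL1A and IL1B are shown because these ligand genes had the largest differences among the tested genes of the family, lie side by side and are read in the same direction. The bases come from RefSeq promoter windows in GRCh38.p14, minus strand, which run from 250 bases before to 50 bases after each RefSeq start. GENCODE 29 places the first exon further upstream, beginning at 112784590 for IL1A and 112836903 for IL1B on chromosome 2, so only the bases before that exon are printed, at chr2:112784591-112784743 for IL1A and chr2:112836904-112837029 for IL1B. The last line is a 27-base stretch inside that first exon of IL1A, at chr2:112784489-112784515, shown for its AP-1 letters. Capitals mark a match to a motif: for the IL1A upstream line the TATA box letters TATAAA, for the IL1B line a binding motif of the C/EBP factors, TTGCNNAA, and for the exon line the motif of the dimeric AP-1 factors, TGANTCA.
IL1A upstream: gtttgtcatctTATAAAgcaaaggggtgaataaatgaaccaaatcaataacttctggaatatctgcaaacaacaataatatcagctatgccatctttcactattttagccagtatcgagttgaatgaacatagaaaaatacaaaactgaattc
IL1B upstream: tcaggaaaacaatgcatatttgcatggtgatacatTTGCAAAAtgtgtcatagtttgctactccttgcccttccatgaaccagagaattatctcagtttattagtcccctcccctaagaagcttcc
IL1A first exon: cgaagaagacTGACTCAggcttaagct
The motifs were searched on both strands over the whole windows of 300 bases, and positions count from the RefSeq start. RefSeq gives IL1A 2 starts, and the printed bases belong to the window of the more upstream one. That window held TGANTCA at 2 places, at bases -12 and 39, both inside the first exon of GENCODE 29. Counted from the other start, the same 2 matches lie upstream, at bases -105 and -55. Of 35116 RefSeq windows, 7.71% held TGANTCA and 0.515% held it at least 2 times. The more upstream IL1A window also held TATAAA from base -239, as did 11.5% of windows, and the other IL1A window held none. Among the other members, IL1R1, IL1R2 and IL1RN each had a window with TATAAA. In IL1R2 and IL1RN it lay from base -30. The IL1B window held TTGCNNAA from base -215, a motif present in 10.5% of windows, and no TGANTCA or TATAAA. The most upstream of the 3 windows of IL1RN held TGANTCA from base -223. The cyclic AMP response element TGACGTCA and a direct repeat PPAR response element occurred in none of the 15 windows of the 7 members that had one, and in 1.85% and 0.0228% of all windows. A strict NF-kappaB motif of 10 bases was found in the other 2 windows of IL1RN, which overlap and share the match, and in 1.91% of all windows. These are matches of letters only, and binding was not measured.

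The agonist ligands of IL1R1 carried the largest differences. IL1A, which lies on the minus strand of chromosome 2 (112773915 to 112784590, GRCh38 in GENCODE 29), read 557 and 496 normalised counts in vehicle, and with octanoate 4138 and 3891. Both octanoate libraries were high and the groups did not overlap. In bulk RNA more cells that express a gene and more RNA per cell cannot be told apart. The mean was 7.63 times higher in octanoate (4014 ± 175 against 526 ± 42.8, SD, n = 2 per group), a log2 difference of 2.93 (SE 0.07). IL1B, at 112829751 to 112836903 on the same strand, read 83.4 and 76.5 in vehicle and 973 and 903 in octanoate. This was 11.7 times higher (938 ± 49.8 against 80.0 ± 4.87, SD, n = 2 per group), a log2 difference of 3.54 (SE 0.12), again with no overlap. Among the 20250 genes with a mean of at least 10, IL1B had the 9th and IL1A the 22nd largest positive log2 difference. The authors' deposited table lists log2 fold changes of 2.93 for IL1A and 3.55 for IL1B.

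Of the other ligands among the 9 genes, IL18 was lower and IL33 was barely detected. IL18, whose product drives interferon-gamma release from lymphocytes, lies on chromosome 11 (112143251 to 112164117, minus strand) and read 167 and 168 in vehicle and 123 and 88.9 in octanoate. Both octanoate libraries were low, and they differed from each other more than the vehicle libraries did. The octanoate mean was 0.634 of the vehicle mean (106 ± 24.3 against 167 ± 0.527, SD, n = 2 per group), a log2 difference of -0.67 (SE 0.17). Without octanoate 2 the log2 difference was -0.44, and without octanoate 1 it was -0.90, so its size rests on which octanoate library is used. The authors' deposited table lists -0.65 for IL18. IL33, an alarmin kept in the nucleus of barrier cells, lies on chromosome 9 (6215786 to 6257983, plus strand) and had 0 and 3 recovered reads in vehicle and 3 and 3 in octanoate. It was at the edge of detection in every library, and no fold is given.

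The antagonist was at the edge of detection. IL1RN, at 113107214 to 113134016 on the plus strand of chromosome 2, had 3 and 1 reads in vehicle and 0 and 0 in octanoate. A floor of 3 reads in a library was used, or 2.89 and 3.25 normalised counts in octanoate 1 and 2, for counting error only. No difference of IL1RN could be detected at this depth. Any level under the floor, or up to the interval limits given below, is possible. Scaled by exon length, 3 reads of IL1RN correspond to 0.313 and 0.346 per 100 of IL1A plus IL1B in the vehicle libraries and to 0.0392 and 0.047 in the octanoate libraries. The counted reads of IL1RN were at or under 3 in all 4 libraries, which does not bound its level in vehicle. By exact two-sided Poisson 95% intervals, the 3 and 1 reads in vehicle allow up to 8.77 and 5.57 reads, and a count of 0 up to 3.69. The value for 3 reads is lower in octanoate because IL1A and IL1B are higher there.

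IL1R1 and its accessory chain IL1RAP differed in opposite directions. IL1R1, the signalling receptor, on chromosome 2 (102064544 to 102179874, plus strand), read 33.4 and 34.9 in vehicle and 94.3 and 94.3 in octanoate. The octanoate libraries were 2.76 times higher (94.3 ± 0.0313 against 34.1 ± 1.06, SD, n = 2 per group), a log2 difference of 1.44 (SE 0.22). These values rest on 34 and 36 reads against 98 and 87. IL1RAP, the accessory chain also used by the IL-33 and IL-36 receptors, on chromosome 3 (190514051 to 190659750, plus strand), read 2294 and 2070.4 in vehicle and 1663 and 1764 in octanoate. It was lower in both octanoate libraries, at 0.785 of the vehicle mean (1714 ± 71.5 against 2182 ± 158, SD, n = 2 per group) and a log2 difference of -0.35 (SE 0.07). The decoy receptor IL1R2, at 101991844 to 102028544 on the plus strand of chromosome 2, had 2 and 2 reads in vehicle and 3 and 3 in octanoate, too few for a fold.

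CASP1, the protease that cleaves pro-IL-1beta and pro-IL-18, lies on chromosome 11 (105025443 to 105035250, minus strand) and read 6.87 and 10.7 in vehicle and 9.63 and 4.33 in octanoate. The groups overlapped, and the values rest on between 4 and 11 reads. CASP1 shares 496 bases at 98.2% identity with CARD16, so part of its reads may be CARD16 reads, and CARD16, looked up for this reason, read between 7.59 and 13.7. IL1RAP shares 535 bases of exon with the non-coding gene AC108747.1 on the same strand, and 11 exonic bases of IL1R1 overlap IL1R1-AS1 on the other strand. Whether reads were counted by strand is not given in the sources used here.

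**Figure D1:**
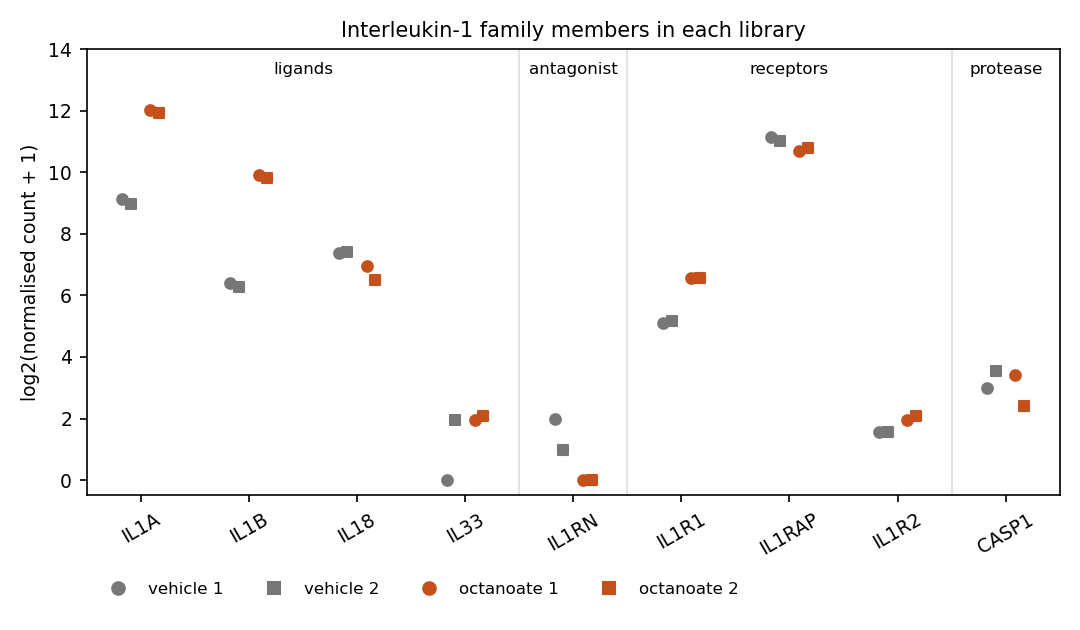
Normalised counts of the 9 genes in each library, on the log2(normalised count + 1) scale, in order of role; grey points are the vehicle libraries, orange points the octanoate libraries, circles replicate 1 and squares replicate 2. IL1A, IL1B and IL1R1 sit higher in octanoate, IL18 and IL1RAP lower, and the other 4 genes stay at 11 reads or fewer.

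Of the 9 genes, 5 averaged at least 10 normalised counts over the libraries and entered the fit over all genes. All 5 had a limma adjusted p under 0.05, 3 higher and 2 lower, where 29.9% of the 20250 tested genes did, 16.2% higher and 13.7% lower, and the groups did not overlap for any of the 5, as for 63.1% of tested genes. Since the contrast had been seen when the genes were picked, nothing is read from these counts. IL1RN, IL1R2, IL33 and CASP1 were below the limit and were not tested.

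The order of levels was taken per kilobase of exon. In vehicle IL1A came first (262 and 234 normalised counts per kilobase), then IL1RAP (198 and 179), IL18 (63.5 and 63.8), IL1B (26.9 and 24.7), IL1R1 (4.71 and 4.92) and CASP1 (1.86 and 2.88). IL1R2, IL1RN and IL33 followed at under 1 per kilobase, and their library values overlapped, so they have no order among themselves. In octanoate IL1B came next (314 and 292), behind IL1A (1948 and 1832) and ahead of IL1RAP (144 and 153), IL18 (46.9 and 33.8) and IL1R1 (13.3 and 13.3). Neighbours from IL1A to CASP1 did not overlap in either group. With the longest coding transcript as the length, IL1RAP came before IL1A in vehicle.

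Ratios between members, which follow from the same values, are given as a description. Per kilobase, IL1A exceeded IL1B by 9.72 and 9.45 times in vehicle and by 6.2 and 6.28 times in octanoate. The accessory chain exceeded IL1R1 by 42.1 and 36.4 times in vehicle and by 10.8 and 11.5 times in octanoate. With the longest coding transcript as the length these were 65.3 and 56.4 times in vehicle and 16.8 and 17.8 times in octanoate. IL1A and IL1B together exceeded IL1R1 by 61.3 and 52.4 times in vehicle and by 169.9 and 159.5 times in octanoate. By the longest coding transcript this excess was 48.3 and 41.4 times in vehicle and 139 and 130.1 times in octanoate. For each of these ratios both octanoate libraries lay on the same side of both vehicle libraries.

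**Figure D2:**
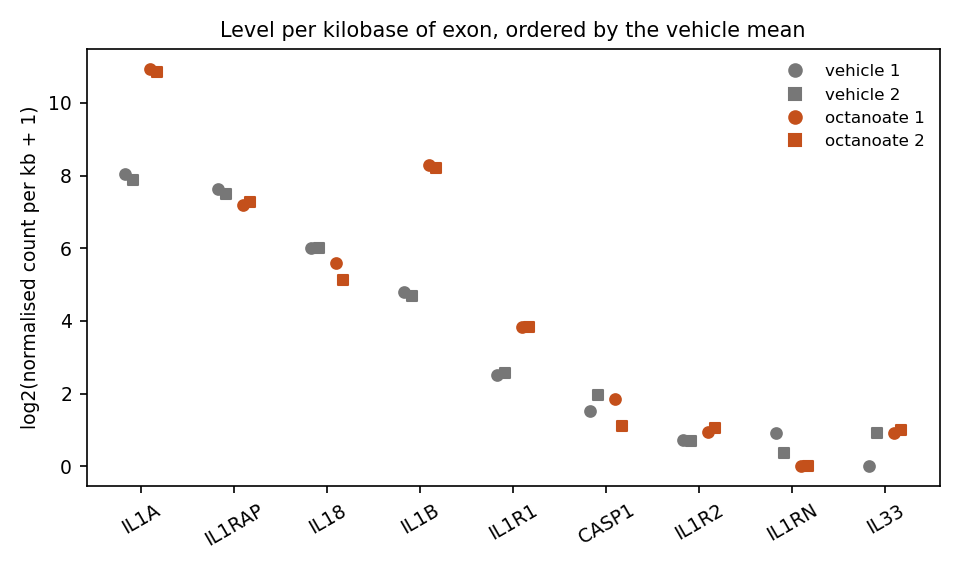
Level of each of the 9 genes per kilobase of exon, as log2(normalised count per kb + 1), ordered by the vehicle mean; colours and shapes give the group and replicate. IL1B is below IL18 in vehicle and above IL18 and IL1RAP in octanoate, where its libraries stand at 314 and 292 per kilobase.

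The remaining genes of the family and of its pathway were taken from lists written with earlier results of these data known. The p-values of their genes come from the fit over all tested genes, and the counts per list are a description. Of the 6 other ligand genes, 1 was detected at a mean of at least 10. This was IL37, which encodes an anti-inflammatory ligand that binds the IL-18 receptor chain, and it rose. Its libraries read 52.0 and 43.6 in vehicle and 284 and 268 in octanoate, with no overlap. The rise was 5.77-fold, with means of 47.8 ± 5.96 and 276 ± 11.5 (SD, n = 2 per group), or 2.51 on the log2 scale (SE 0.16, adjusted p 2.12e-11 by limma). IL36G had 0 and 3 reads in vehicle and 3 and 5 in octanoate, and IL36B had 3 reads in vehicle 1 only. IL36RN had 1 read in octanoate 1 only, and IL36A and IL1F10 had 0 reads in all 4 libraries.

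Of 8 other receptors and binding proteins, 5 were tested, 2 rose and none fell, against 29.9% of all tested genes called. IL1RL1, which encodes the IL-33 receptor ST2, read 114 and 101 in vehicle and 346 and 380.4 in octanoate. It rose 3.38-fold (363 ± 24.6 against 107 ± 9.26, SD, n = 2 per group), or 1.75 on the log2 scale (SE 0.13, adjusted p 2.76e-10 by limma). IL18R1, the ligand-binding chain of the IL-18 receptor, read 26.5 and 24.2 in vehicle and 93.4 and 102 in octanoate. It rose 3.85-fold (97.6 ± 6.01 against 25.4 ± 1.61, SD, n = 2 per group), or 1.90 on the log2 scale (SE 0.23, adjusted p 7.77e-07 by limma). Its signalling partner IL18RAP, named after its values were seen, had between 0 and 3 reads per library. IL1RL1 and IL18R1 share 95 exonic bases on the same strand in GENCODE 29, so a small part of their reads cannot be assigned. The 3 genes that were tested and not called are named here after their values were seen. SIGIRR, an inhibitory receptor, had a log2 difference of 0.13 (limma adjusted p 0.24), the neuronal gene IL1RAPL1 one of -0.02 (0.878) and IL18BP, a soluble IL-18 antagonist, one of 0.17 (0.396). For IL18BP the count is uncertain, because 675 exonic bases overlap NUMA1 on the other strand.

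**Figure D3:**
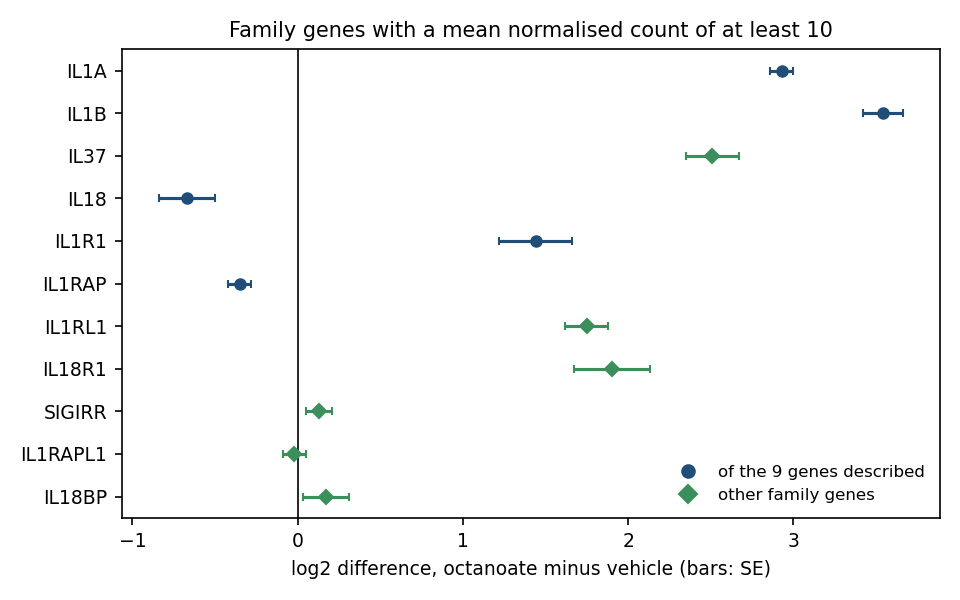
Log2 differences between octanoate and vehicle, with their standard errors, for the 11 family genes that averaged at least 10 normalised counts; circles are genes of the 9, diamonds the other family genes. IL1B is at 3.54 and IL1A at 2.93, IL37, IL18R1, IL1RL1 and IL1R1 lie between 1.44 and 2.51, and IL18 and IL1RAP are below 0.

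Most family genes lie in a ligand cluster and a receptor cluster on chromosome 2, and their values by position are given as a description, since IL1A, IL1B and IL1R1 were picked on this contrast. The ligand cluster, from IL1A to IL1RN, holds 9 protein-coding genes in GENCODE 29, and IL1A, IL1B and IL37, the 3 neighbours at one end, were the ones with a mean of at least 10 and were all higher in octanoate. The other 6 reached at most 5.42 normalised counts in any library. The receptor cluster, from IL1R2 to IL18RAP, holds 6, and IL1R1, IL1RL1 and IL18R1 were the tested ones, all 3 higher, while the other 3 reached at most 3.25. Of the 3 coding genes on each side of the ligand cluster, 5 were tested, 3 were higher and 2 not called, where 16.2% of all tested genes were higher. SLC20A1, a phosphate transporter, rose by a log2 difference of 0.76 (limma adjusted p 6.16e-10), PSD4 by 0.55 (3.13e-05) and PAX8 by 0.60 (0.00629), all less than the ligand genes. CKAP2L, the gene next to IL1A, had a log2 difference of 0.14 (limma adjusted p 0.0761). Beside the receptor cluster 2 of 6 flanking genes were tested and neither was called, MAP4K4 at 0.12 (limma adjusted p 0.112) and MFSD9 at 0.20 (0.0988). These flanking genes were looked up after the family's values were seen.

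**Figure D4:**
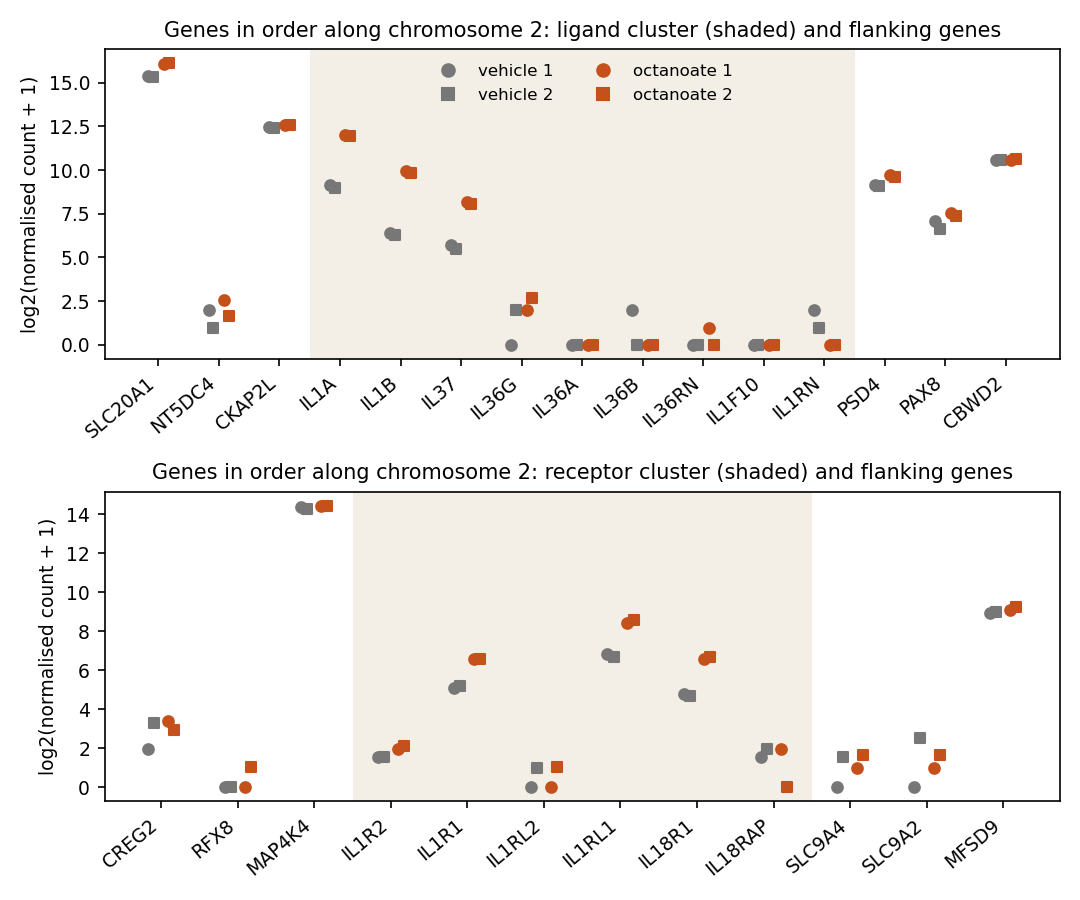
Normalised counts, as log2(normalised count + 1), of the genes of the ligand cluster (top) and the receptor cluster (bottom) in their order along chromosome 2, shaded, with 3 protein-coding genes on each side; spacing is not to scale. In the ligand cluster IL1A, IL1B and IL37 are raised in octanoate and the genes from IL36G to IL1RN stay at 5.42 or lower.

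Of 19 genes whose products carry the signal below the receptor, 18 were tested, 2 rose, 2 fell and 14 were not called, with a median log2 difference of 0.01, the same as over all tested genes, and 22.2% called against 29.9%. With the replicate number as a block 7 of the 18 were called. IRAK2, a kinase-like relay of the receptor complex, read 294 and 289 in vehicle and 659 and 637 in octanoate. It rose 2.22-fold (648 ± 15.6 against 292 ± 4.07, SD, n = 2 per group), or 1.15 on the log2 scale (SE 0.10, adjusted p 1.80e-09 by limma). MYD88, the adaptor that all signalling receptors of the family use, read 3344 and 2999 in vehicle and 2512 and 2359 in octanoate, and fell by 0.38 on the log2 scale (SE 0.07, limma adjusted p 0.000115). PELI3, a ubiquitin ligase, rose by 0.40 (SE 0.09, limma adjusted p 0.000866), and IRAK1, the kinase that acts with IRAK2, fell by 0.18 (SE 0.06, limma adjusted p 0.0324). Calls here depended on the variance model. Without an intensity trend the limma adjusted p was 0.0939 for MYD88, the highest of its 14 alternatives, whose lowest was 4.08e-10, and the PELI3 and IRAK1 calls were lost as well, both also without a filter. IRAK1 further lost its call with TMM scaling and without vehicle 1 or octanoate 2. PELI3 overlaps MRPL11 and AP002748.3 on the other strand, so its count is uncertain.

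The inflammasome and processing list had 19 of 23 genes tested, with 6 higher, 2 lower and 11 not called, and a median of -0.01. This is 42.1% called, against 29.9%, and 5 genes were called without octanoate 2. CASP4, a caspase that senses intracellular lipopolysaccharide, read 2579 and 2487 in vehicle and 3639 and 3414 in octanoate, and rose by 0.48 on the log2 scale (SE 0.06, limma adjusted p 2.39e-06). NLRP3, the sensor of the best known inflammasome, read 48.1 and 39.7 in vehicle and 112 and 103 in octanoate. It rose 2.44-fold, by 1.28 on the log2 scale (SE 0.20, limma adjusted p 3.49e-05). AIM2, a sensor of cytosolic DNA, read 1131 and 1037 in vehicle and 758 and 672 in octanoate, and fell by 0.60 (SE 0.08, limma adjusted p 5.76e-06). CAPN2, the large subunit of a calpain, rose by 0.33 (SE 0.06, limma adjusted p 0.000103), and shares 106 bases with TM2D1. The other calpain genes of the list, named after their values were seen, did not rise. CAPNS1 fell by 0.19 (SE 0.06, limma adjusted p 0.0162), and CAPN1 had a log2 difference of -0.05 (limma adjusted p 0.586). The CAPNS1 call was lost without an intensity trend, without a filter and without vehicle 1 or octanoate 2. Without an intensity trend the limma adjusted p was 0.056 for AIM2 and 0.0726 for CAPN2, the highest of 14 alternatives for each, with lowest values of 7.38e-12 and 2.41e-10. PYCARD, the adaptor that joins these sensors to caspase-1 and named here after its values were seen, had between 0 and 2 reads per library. Reads of PYCARD and of its antisense partner PYCARD-AS1 cannot be told apart without strand.

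Genes that IL-1 is known to induce were mostly higher. The list overlaps an inflammatory list already described in these data, and CSF2, CCL2 and their directions were known when it was written, so its direction is no independent evidence. Of 27 genes 22 were tested, 15 rose, 2 fell and 5 were not called, with a median log2 difference of 0.80 against 0.01 over all tested genes. This is 77.3% called, against 29.9%. Of the 22 tested genes of the list, 8 were called with a difference of at least 2-fold, as were 4.21% of all tested genes. IL11, a cytokine of the IL-6 type, read 1135 and 1089.9 in vehicle and 6318 and 5671 in octanoate. It rose 5.39-fold (5995 ± 457 against 1112 ± 31.6, SD, n = 2 per group), or 2.43 on the log2 scale (SE 0.07, adjusted p 2.10e-18 by limma). PTGES, the terminal synthase of prostaglandin E2, rose from 4651 and 4251 to 12655 and 12298, by 1.49 on the log2 scale (SE 0.06, adjusted p 1.91e-15 by limma).

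The neutrophil chemokine CXCL3 rose from 111 and 94.0 to 541 and 595, by 2.46 on the log2 scale (SE 0.13, adjusted p 1.95e-13 by limma). LIF, another cytokine of the IL-6 type, rose from 3515 and 3402 to 6584 and 6380.0, by 0.91 on the log2 scale (SE 0.06, adjusted p 1.65e-11 by limma). The genes that fell, named after their values were seen, were the monocyte chemokine CCL2 and the early response gene IER3. CCL2 went from 226 and 229.6 to 52.9 and 33.6, a log2 difference of -2.40 (limma adjusted p 9.37e-10), and IER3 fell by 0.23 (limma adjusted p 0.0044). IER3 lost its call without an intensity trend, without a filter and without vehicle 1 or octanoate 2. Of the NF-kappaB targets not called, also named after their values were seen, NFKBIA had a log2 difference of 0.11 (limma adjusted p 0.316). SOD2 had one of -0.04 (limma adjusted p 0.673) and ICAM1 one of 0.09 (0.369). Other NF-kappaB targets, named in the same way, were called higher. BIRC3 rose by 0.92 (limma adjusted p 3.69e-07), ZC3H12A by 0.82 (2.54e-06), TNFAIP3 by 0.43 (0.0031) and NFKBIZ by 0.24 (0.0214). Without an intensity trend ZC3H12A, TNFAIP3 and NFKBIZ lost their calls. TNFAIP3 and NFKBIZ also lost them without a filter, and NFKBIZ with DESeq2. NFKBIZ further lost its call whichever library was left out, and TNFAIP3 without vehicle 2. IL6, likewise chosen after its values were seen, had 1 and 5 reads in vehicle and 7 and 11 in octanoate and was not tested. LIF, IER3, IL6, TNFAIP3 and ICAM1 overlap antisense genes, and IL11 shares stretches of up to 127 bases with 6 other genes. SOD2 shares sequence with other loci. The counts of all these genes are uncertain.

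**Figure D5:**
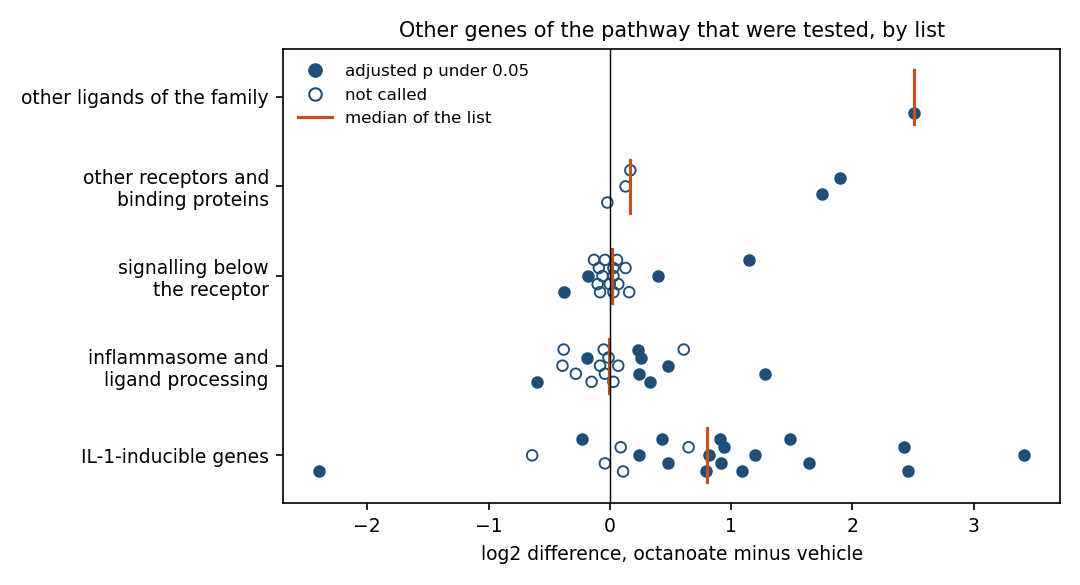
Log2 differences between octanoate and vehicle of every tested gene of the 5 lists; filled points have a limma adjusted p under 0.05, open points were not called, and the bar is the list's median. The IL-1-inducible genes have their median at 0.80 and CCL2 at -2.40, and the signalling list is centred at 0.01.

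Genes whose profile over the 4 libraries lay closest to that of IL1A or IL1B were sought among 13481 others with a mean of at least 100. The measure was the root mean square difference of centred log2 values, and with 4 libraries it mostly finds genes with a rise of the same size. Closest to IL1A were S100P, a calcium-binding protein (0.0658), C5AR1, the receptor for complement C5a (0.135), and CHRNA9, a nicotinic receptor subunit (0.184). S100P read 175 and 166 in vehicle and 1258 and 1155 in octanoate. Closest to IL1B were C11orf86 (0.0934), CREB3L3, a membrane-bound transcription factor of liver lipid metabolism (0.0956), and SH2D2A, a signalling adaptor (0.158). CREB3L3 read 99.1 and 96.9 in vehicle and 1029.9 and 1006 in octanoate.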

How the data were processed

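RNA of A375 cells was sequenced in 2 vehicle and 2 octanoate libraries. Per the submitters' processing notes the tools were bcl2fastq 2.17, Trim Galore, STAR 2.4, Picard, HTSeq 0.9.1 and DESeq2, with hg38; the annotation and the use of strand are not given in the sources used here. The deposited signal per gene is a count divided by 1 size factor per library, and every positive value (100% in each library, relative tolerance 1e-06) was a whole multiple of the smallest, so whole reads were recovered. From the authors' deposited table of log2 fold changes, test scores and p-values, only log2 fold changes are printed.

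The 9 genes and all lists were chosen with earlier results of these data known. limma 3.58.1 (R 4.3.3) was fitted to log2(normalised count + 1) with an intensity trend, over 20250 genes with a mean of at least 10, treatment being the only term; differences of low genes are understated. Tests are two-sided, Benjamini-Hochberg adjusted over these genes, and called under 0.05. The alternatives tried were a pseudocount of 0.5 or of 5, every gene with a read or a mean of 50 as filter, TMM or equal totals, no trend, a replicate block, each library left out, and edgeR 4.0.16 and DESeq2 1.42.0 on recovered reads, which called 6480 of 20250 genes and 4947 of the 16324 with an adjusted p. The fit was first tested on simulated counts with 200 changed genes. It recovered 57.8%, 75% and 98.4% of log2 changes of 0.5, 1 and 2 with the right sign, and 11 of its 156 calls were false.

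Lengths, positions and overlaps came from GENCODE 29, shared sequence from blastn 2.17.0 (at least 95% identity over 100 bases), and promoter windows from RefSeq (7 of the 9 genes matched; IL18 and CASP1 did not). GSDME is listed under its older symbol DFNA5. Named list genes are the 4 called genes with the smallest p per list, and every gene of a list of fewer than 8; for IL1A and IL1B the 3 closest profiles were added. Replicates differed by more than sampling noise (chi-square per degree of freedom 4.77 in vehicle and 6.5 in octanoate) and were kept apart.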

Additional observations from a re-analysis of the deposited data

How the results depend on the processing

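The log2 differences of the 5 tested members kept their sign in all 14 alternatives, from 2.85 to 3.01 for IL1A, 3.47 to 3.60 for IL1B, 1.34 to 1.47 for IL1R1, -0.42 to -0.27 for IL1RAP and -0.90 to -0.44 for IL18. No called list gene changed sign. Without a filter 2595 genes were called, with 3 members, 2 signalling and 4 inflammasome genes; without an intensity trend 1625 genes, with 3 members, 1 signalling, 3 inflammasome and 11 IL-1-inducible genes. In both of these fits IL1RAP and IL18 were the members not called, and IL18 was also not called without octanoate 2. Leaving out a library gave 4382 to 4878 called genes, 4 to 5 members, 3 to 4 signalling, 5 to 7 inflammasome and 15 to 16 IL-1-inducible genes, and left the counts for other ligands (1) and other receptors (2) as they were. An arm left with 1 library is assumed to vary like the other. With the replicate number as a block 8376 genes were called, 7 of them in the signalling list; same-numbered libraries deviated together with a correlation of 0.126 over 20250 genes, but with 2 pairs the numbers are not shown to pair the samples. Of the calls 54.1% were higher, and between 50.2% (DESeq2) and 67.4% (no trend) over the alternatives, with 50.9% for equal totals, 58.9% for TMM scaling and 64.3% without vehicle 1. With the longest coding transcript as length, chosen after the data were seen, IL1A ranked 2 in vehicle and IL1A over IL1B per kilobase was 5.05 in vehicle and 3.29 in octanoate, against 9.59 and 6.24; these values involve no filter, pseudocount or fit. Depth limits the rest: the median standard error was 0.42 for genes with a mean of 10 to 30 and 0.06 at 1000 or more, and IL1RN, IL1R2, IL33 and CASP1 had 11 reads or fewer. The cause of these changes was not tested.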
